A study of Mus musculus with 13 samples.

Results

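The Myod1 knockout line of C2C12 cells was compared with wild-type C2C12 cells after 48 h in differentiation medium, by the genomic regions that carried acetylated lysine 27 of histone H3 (H3K27ac). The comparison used 2 of the 12 libraries analysed. The knockout list held 55585 peaks and the wild-type list 71281 peaks. Each peak was a stretch of the genome called as enriched in chromatin immunoprecipitation and sequencing (ChIP-seq). A wild-type peak that overlapped no knockout peak by at least 1 base was counted as missing, and one that overlapped a knockout peak as kept.

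C2C12 is a mouse myoblast line that fuses into myotubes when serum is lowered. MyoD, the product of Myod1, is a basic helix-loop-helix transcription factor that binds E-box sequences in muscle genes and enhancers. It is known to recruit histone acetyltransferases such as p300, and H3K27ac marks active promoters and enhancers. Myoblasts also express the related factor Myf5, and Myogenin follows MyoD during differentiation.

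The knockout cells were edited with CRISPR/Cas9 to remove MyoD expression, and the wild-type cells were unedited. Both were kept in DMEM with 2% horse serum and antibiotics. The series also held wild-type cells at -24, 0, 6, 12, 24 and 72 h around the medium change and 4 further edited lines at 48 h. Of these lines, H1 lacked the region the submitters call hotspot H1, H3 lacked hotspot H3, H23 lacked H2 and H3, and H34 lacked H3 and H4. The series' CRISPR control was not analysed here, and unedited cells served as the reference. Editing as such and the absence of MyoD cannot be told apart in that comparison, and whether the knockout line was 1 clone was not given. With 1 library per condition, no test could be run. All intervals are 95% intervals that cover counting error only. Those of shares are Wilson intervals, those of differences combine the Wilson intervals of both shares, and those within strata are normal approximations. All treat peaks as independent, although neighbouring peaks tended to be missing or kept together, so they are likely too narrow. The Myod1 disruption and the muscle markers of the cells could not be checked from peaks without a gene annotation of the build mm9, so no peak is tied to a gene.

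In the knockout, H3K27ac peaks were fewer, narrower and covered less of the genome. Knockout peaks covered 18.3 Mb and wild-type peaks 45.4 Mb. The median width was 234 bp in the knockout and 420 bp in wild type. Peaks of at least 1000 bp numbered 1682 in the knockout (3.03% of its list) and 11656 in wild type (16.4%). Peaks of at least 2500 bp numbered 60 in the knockout and 1504 in wild type. The narrowest width allowed by the peak caller also differed, at 125 bp in the knockout and 191 bp in wild type, and 12.3% of knockout peaks and 5.41% of wild-type peaks had exactly that width.

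Of the 71281 wild-type peaks, 40973 had no knockout peak, which is 57.5% (57.1 to 57.8%). In the other direction, 14184 of the 55585 knockout peaks had no wild-type peak, 25.5% (25.2 to 25.9%). By sequence covered, knockout peaks held 13.9 Mb of the wild-type peak sequence, or 30.6% of it, and that stretch was 75.8% of the knockout peak sequence. With the wild-type list cut to its 55585 peaks of highest −log10 p, 27589 of them (49.6%) were missing. In that same comparison 16276 knockout peaks (29.3%) had no wild-type peak.

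The depth of the libraries was not given, but the peaks carried a trace of it. The caller's fold enrichment and p-value at a summit are set by the fragments piled up there and by the background expected at that position, and both could be solved for every peak. The lowest background, which 86.3% of knockout peaks and 69.3% of wild-type peaks carried, was 0.697 fragments per position in the knockout and 1.83 in wild type. The wild-type background was thus 2.63 times that of the knockout, or 1.72 times when each is divided by its narrowest peak width. The median summit pileup was 9 fragments in the knockout and 18 in wild type, and the lowest was 5 in the knockout and 9 in wild type. Wild-type pileups were scaled by 0.381, the ratio of the knockout to the wild-type background per position. On that scale 18.8% of wild-type peaks lay below the lowest pileup called in the knockout. With the width-divided ratio of 1.72, scaled pileups would be higher and this share smaller, and it was not computed. Absence of such weak peaks from the knockout list is not detectable as a difference at this depth. The scaled pileup, by 0.381 throughout, is given beside many of the results that follow.

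Missing peaks were mostly the weak ones. Among wild-type peaks with a scaled pileup of 4 to below 6 fragments, 80.6% (80.1 to 81.1%) had no knockout peak. The share was 66.1% at 6 to below 8, 44.6% at 8 to below 12, 25.5% at 12 to below 16 and 11.9% at 16 to below 24. At 24 to below 48 fragments, 74 of 2215 peaks were missing, 3.34% (2.67 to 4.17%). None of the 127 peaks at 48 or more fragments was missing, which allows a share of up to 2.94%. A scaled pileup of 12 was reached at 32 wild-type fragments, and one of 24 at 64 fragments.

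The 4 hotspot lines were set beside the knockout on the same wild-type list, which all 5 comparisons share. Over all wild-type peaks, 57.5% were missing in the knockout, against 16.2% (H1), 26.0% (H3), 18.2% (H23) and 18.0% (H34) in the hotspot lines. Background per position was 0.697 in the knockout and 1.42, 1.12, 1.90 and 1.77 in H1, H3, H23 and H34, so the knockout library was the shallowest of the 5 by this measure. The narrowest width was 125 bp in the knockout and 130 to 140 bp in the hotspot lines, against 191 bp in wild type. Among the 13720 wild-type peaks with a scaled pileup of at least 12, 2320 were missing in the knockout, 16.9% (16.3 to 17.5%). The hotspot lines lacked 0.911% (H1), 3.63% (H3), 2.31% (H23) and 1.65% (H34) of these same peaks.

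The hotspot lists were then held to the lowest pileup of the knockout, scaled to each line's background. Over all wild-type peaks this left 57.5% missing in the knockout, against 24.9% (H1), 28.9% (H3), 26.1% (H23) and 26.7% (H34) in the hotspot lines. For peaks of a scaled pileup of at least 12 the shares were 16.9% in the knockout, against 1.77% (H1), 4.23% (H3), 3.62% (H23) and 3.08% (H34) in the hotspot lines. For those of at least 24 the knockout lacked 74 of 2342 peaks, against 3, 14, 6 and 5 in H1, H3, H23 and H34. The knockout thus had the highest share of the 5 lines at each of these levels. A common floor does not equate the counting noise of libraries of different depth, and how much of the remaining gap depth accounts for was not tested.

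**Figure D1:**
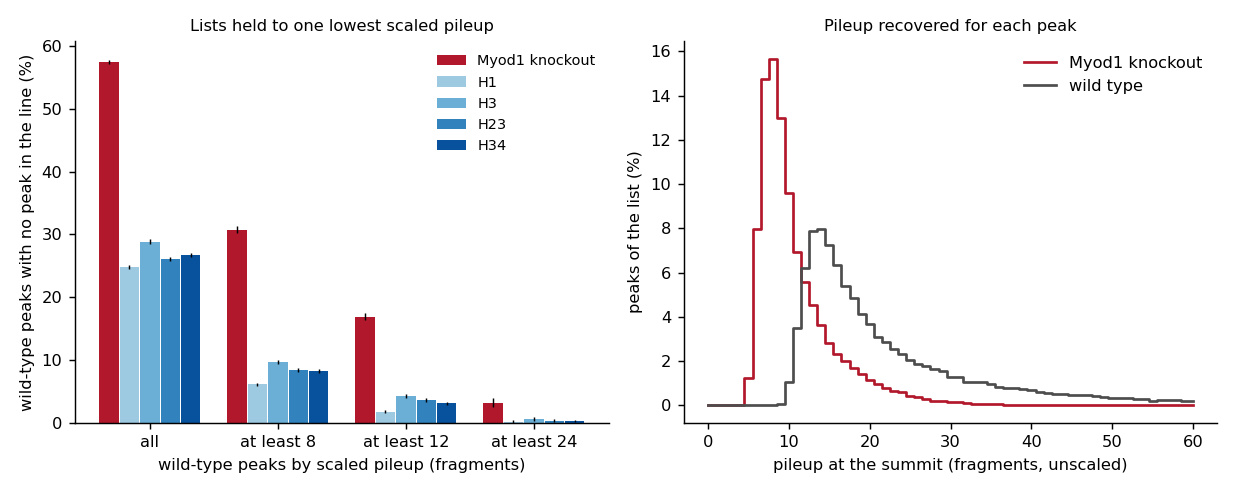
Left, the percentage of wild-type peaks at 48 h with no peak in each edited line, for all peaks and for those of a scaled pileup of at least 8, 12 and 24 fragments, with the hotspot lists held to the lowest scaled pileup of the Myod1 knockout and bars of 95% Wilson intervals. The knockout lacked 30.7% of peaks at 8 or more, against 6.10% to 9.70% in the hotspot lines. Right, the percentage of each list at each summit pileup up to 60 fragments, with a median of 9 in the knockout and 18 in wild type.

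Wild-type peak width ordered the missing peaks over a wide range. With the wild-type list cut into 10 equal bins (deciles), the narrowest decile (191 to 207 bp) had 84.0% of its peaks missing in the knockout (83.2 to 84.9%). The share was 67.9% in the fifth decile (350 to 420 bp) and 28.2% in the ninth (874 to 1324 bp). In the widest decile (1325 to 13539 bp) 950 of 7128 peaks were missing, 13.3% (12.6 to 14.1%). The order was the same with equal numbers of strongest peaks, from 76.2% in the narrowest decile to 11.4% in the widest.

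The fold enrichment and the −log10 p of each peak, which are the authors' values and were used here within the wild-type list alone, gave steeper gradients. Missing peaks made up 88.7% of the decile with the lowest fold and 7.80% of the decile with the highest. By −log10 p they made up 89.0% of the lowest decile (4.13 to 7.11) and 8.02% of the highest (41.2 to 441.2). Width and strength each divided the missing share within deciles of the other. Within each decile of −log10 p, the narrower 50% of peaks had a share higher by 4.69 to 11.8 percentage points. Within each decile of width, the 50% with the lower −log10 p had a share higher by 10.4 to 27.5 points. With both measures cut into 5 bins, width did not order the share at every strength. In the fourth bin of −log10 p, 43.8% of the narrowest bin were missing, against 55.8% in the second and 34.1% in the widest. In the highest bin of −log10 p the shares were 26.0% in the second width bin, 31.7% in the third and 11.5% in the widest. Fold and −log10 p are computed from the pileup, so depth bears on these gradients. Among peaks with a scaled pileup of at least 12, the gap between the lowest and highest decile was 30.1 points by width, 46.9 by fold and 40.7 by −log10 p, against 70.7, 80.9 and 81.0 points over all peaks.

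**Figure D2:**
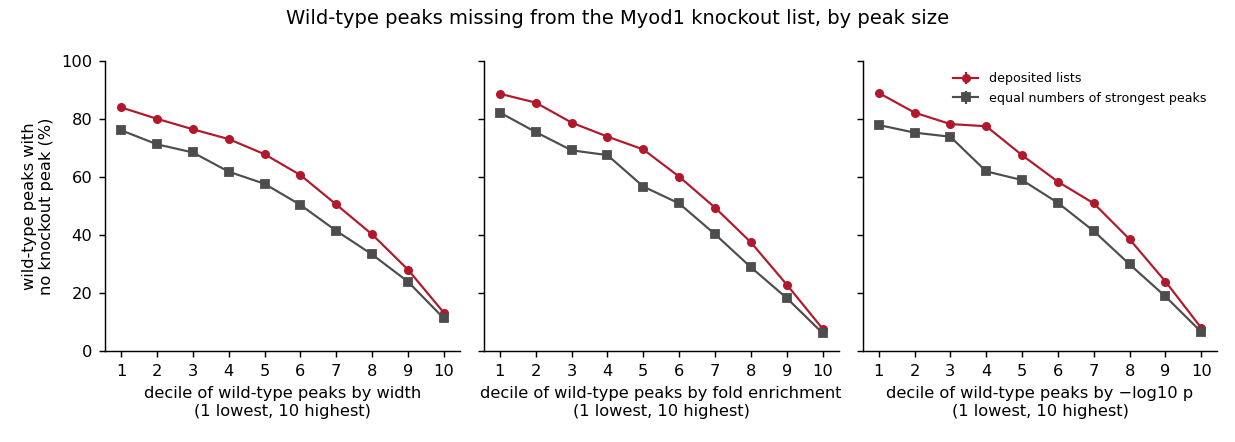
Percentage of wild-type peaks with no Myod1 knockout peak in each decile of the wild-type list by width, by fold enrichment and by −log10 p, for the deposited lists and for equal numbers of strongest peaks, with 95% Wilson intervals. Every panel falls from left to right, and by width the deposited lists go from 84.0% in the narrowest decile to 13.3% in the widest.

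The strongest peaks of the lists were rarely missing from the other list but often held different ranks. Of the 1000 knockout peaks with the highest −log10 p, 26 had no peak anywhere in the wild-type list, 2.60%. Of the 1000 strongest wild-type peaks, 10 had none in the knockout list, 1.00% (0.544 to 1.83%). When both lists were cut to their strongest 1000, 73.7% of the knockout peaks and 75.4% of the wild-type peaks lay outside the other list. At 10000 peaks each these shares were 44.9% for the knockout and 54.0% for wild type, and at 30000 they were 29.1% and 46.6%.

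Kept peaks were mostly called narrower in the knockout list, and some were met by more than 1 knockout peak. For the 30308 kept wild-type peaks, the summed width of the overlapping knockout peaks was a median of 0.594 times the wild-type width (quartiles 0.369 to 0.899). Knockout peaks covered a median of 52.6% of the wild-type peak, and summits lay a median of 100 bp apart. A single knockout peak overlapped 73.4% of kept peaks, while 17.8% were met by 2 and 8.77% by 3 or more, up to 16. The ratio of widths was 1.23 in the narrowest decile of wild-type peaks and 0.457 in the widest, where a kept peak held 2.38 knockout peaks on average. In all, 19.4% of kept peaks were wider in the knockout. Across the kept peaks the ranks of −log10 p in the knockout and in wild type had a Spearman rho of 0.41, and those of width 0.47. These are descriptions over neighbouring peaks of 1 pair of libraries. The knockout library also had the lower background and the narrower minimum width. How far these bear on the narrower and split peaks was not tested. Neither the reverse count, of wild-type peaks per knockout peak, nor that of a hotspot line is given.

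Isolated peaks were compared with peaks in stitched domains, the runs of peaks joined across gaps of up to 12500 bp from which large enhancer clusters are usually defined. Of the 7135 isolated wild-type peaks, 64.2% (63.1 to 65.3%) were missing in the knockout. Of the 64146 peaks in domains of 2 or more, 56.7% (56.3 to 57.1%) were missing. The difference was 7.50 points (6.32 to 8.67). Isolated peaks were also narrower, with a median of 370 bp against 426 bp for domain peaks, and had a median pileup of 17 against 19 fragments. Within strata of equal width and −log10 p the difference was 4.31 points, and isolated peaks had the higher share in 66 of 90 strata. With peaks within 1 kb merged first, the difference was 0.848 points (-0.201 to 1.90) over all peaks and -1.06 (-1.92 to -0.195) within strata, so its direction depends on how peaks are joined.

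The difference was not the same at all strengths. By deciles of −log10 p, isolated minus domain peaks gave 8.31 points in the second decile and 8.65 in the fifth, then 0.0713 in the eighth, -0.351 in the ninth and -3.18 in the highest. Among peaks with a scaled pileup of at least 12, 14.9% of isolated and 17.1% of domain peaks were missing, a difference of -2.20 points (-4.19 to -0.0127). Within strata it was -1.33 points (-3.26 to 0.604), and at 12 to below 16 fragments the shares were 25% and 25.6%. In the highest decile of −log10 p, 5.14% (3.70 to 7.09%) of isolated and 8.32% (7.67 to 9.02%) of domain peaks were missing. A turned order was thus clear of counting error in that decile, but not within strata or at 12 to below 16 fragments. At 24 or more, 3 of 247 isolated peaks (1.21%) and 71 of 2095 domain peaks (3.39%) were missing. The higher share in isolated peaks was thus seen in weak peaks and not in strong ones.

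**Figure D3:**
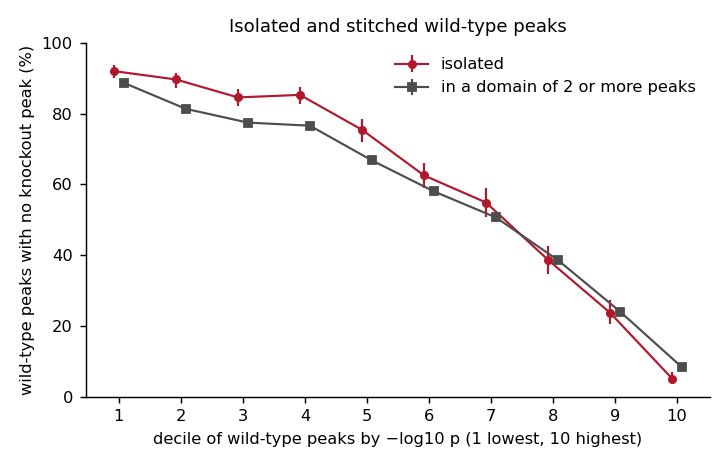
Percentage of wild-type peaks with no Myod1 knockout peak in each decile of −log10 p, for isolated peaks and for peaks in domains of 2 or more, with 95% Wilson intervals. Isolated peaks lie above domain peaks in the lower deciles, by up to 8.70 points in the fourth, and differ from them by -3.18 points in the highest.

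Larger domains kept more of their strong peaks. Over all peaks, the missing share was 57.4% in domains of 2 peaks, 57.5% in those of 6 to 10 and 50.6% in those of 41 or more. For peaks with a scaled pileup of at least 12 it was 20.04% in domains of 2, 17.1% in domains of 6 to 10, 9.39% in domains of 21 to 40 and 7.28% in domains of 41 or more. Strong peaks in larger domains were also wider, with medians of 901 bp in domains of 2 and 1899 bp in those of 41 or more. Inside domains of 3 or more, the first and last peaks were missing in 61.1% of cases and the inner peaks in 54.4%. The peak with the highest −log10 p of each such domain was missing in 29.3%, against 61.8% of the others, with median pileups of 38 and 17 fragments. At a scaled pileup of 12 to below 16 the shares were 25.4% of these strongest peaks and 24.9% of the others, and their intervals overlapped.

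Of the 13961 wild-type domains, 3669 (26.3%) had every peak missing, 2040 (14.6%) had none missing and 8252 had some of each. Complete absence occurred in 40.1% of domains of 2 peaks, 8.75% of those of 6 to 10 and 2.87% of those of 11 to 20. In domains of 21 to 40 peaks it was 1 of 199, and none of the 15 domains of 41 or more lacked every peak. The knockout list itself gave 9987 domains and 6502 isolated peaks, against 13961 and 7135 in wild type.

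Neighbouring peaks tended to be missing or kept together. For wild-type peaks less than 500 bp apart, a peak was missing in 66.5% of cases when its neighbour was missing and in 34.4% when its neighbour was kept. For neighbours at least 50 kb apart these shares were 64.7% and 55.9%. Among pairs of peaks with a scaled pileup of at least 12 they were 46.3% and 11.02% below 500 bp, and 27.2% and 16.2% at 50 kb or more. Missing peaks nevertheless often had a knockout peak in the vicinity. Of all 40973 missing peaks, 29.3% had a knockout peak within 1000 bp and 63.5% within 12500 bp, at a median distance of 5309 bp. Of the 74 missing at a scaled pileup of at least 24, 19 had one within 1000 bp, and the median distance was 15876 bp.

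The wild-type domain with the most peaks and no knockout peak lay on chromosome 16, at chr16:45330686-45384884 in mm9. It spanned 54.2 kb and held 28 wild-type peaks, with a highest pileup of 60 fragments (22.9 scaled). The knockout had 0 peaks in it. H1 met all 28 wild-type peaks with a peak, while H3 met 5, H23 met 1 and H34 met 19. In the wild-type time course, 7 of the 28 were called at -24 h and 13 at 0 h. Later lists called 15 (6 h), 11 (12 h), 16 (24 h) and 17 (72 h) of them. This domain was therefore sparse in the H3 and H23 lines as well as empty in the knockout.

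The other 4 such domains held 15 to 20 wild-type peaks. A domain on the X chromosome (chrX:163203180-163246652) had 20, of which H1 met 19, H3 met 5, H23 met 2 and H34 met 7. A domain on chromosome 3 (chr3:60372822-60420047) had 18, of which H1 met 17, H3 met 11, H23 met 13 and H34 met 18. Another there (chr3:101297989-101341392) had 17, all met in H1 and 0, 5 and 1 met in H3, H23 and H34. In the time course lists, 0 of its 17 peaks were called at -24 and 0 h, 3 at 24 h and 8 at 72 h. The last (chr3:54981454-55031724) had 15, of which 15, 10, 4 and 8 were met in H1, H3, H23 and H34. H1 held 17 or more of the peaks in 4 of these 5 domains and all 15 in the other.

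Among domains with every peak kept, the 5 with the most peaks held 12 to 30. A domain on chromosome 17 (chr17:56597819-56630259) had 12 wild-type peaks, and its span, gaps included, held 18 knockout peaks. At each other time, 6 to 12 of the 12 wild-type peaks had a peak. The other 4, on chromosomes 9, 11, 6 and 4, had 30, 23, 18 and 16 wild-type peaks. Their spans held 12, 41, 44 and 39 knockout peaks, so knockout peaks outnumbered wild-type peaks in all but the chromosome 9 domain. Nearly all of their wild-type peaks were met in the hotspot lines, with 14 of 23 met in H3 on chromosome 11 as the exception. In the time course lists they were met far less, with 1 to 2 of 30 on chromosome 9, 2 to 13 of 23 on chromosome 11, 2 of 18 on chromosome 6 and 0 to 1 of 16 on chromosome 4 at each time. The time course lists came in another format than the 48 h lists, and format and time cannot be told apart for these regions.

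**Figure D4:**
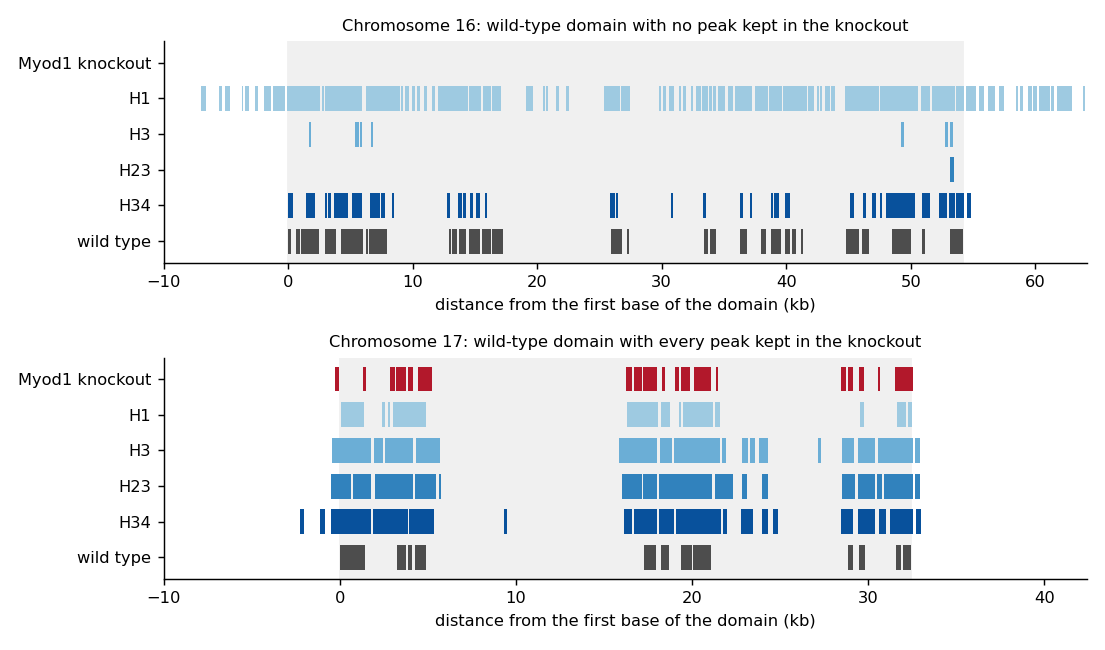
Peaks of the 5 edited lines and of wild type at 48 h over the chromosome 16 domain with no knockout peak and the chromosome 17 domain with every wild-type peak kept, by distance in kb from the first base of the domain (shaded). The Myod1 knockout row is empty over the 28 wild-type peaks of the chromosome 16 domain and holds 18 peaks in the chromosome 17 domain.

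The missing peak with the highest −log10 p (150.6) lay at chr6:129178388-129184169 in mm9, 5782 bp wide. It had a pileup of 118 fragments in wild type, 44.9 when scaled, and the nearest knockout peak was 47243 bp away. All 4 hotspot lines and all 6 other times had a peak there. The peaks at chr10:85101286-85103866 and chr6:128710175-128710687 were alike, with scaled pileups of 37.3 and 35.4 and the nearest knockout peaks 39704 and 82205 bp away. Both had a peak in all 4 hotspot lines and at all 6 times.

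Other strong missing peaks had a knockout peak beside them. The peak at chr8:73047102-73047731 (scaled pileup 40.4) had one 114 bp away, and the peak at chr3:95236694-95238205 (37.3) one 149 bp away. The peak at chr19:38028409-38030268, among the 5 of highest fold, had one 3595 bp away. The first 2 of these were thus counted as missing with a knockout peak almost adjoining.

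The strongest kept peak (chr8:19783947-19785979) had a pileup of 142 fragments in the knockout and 282 in wild type, 107.4 when scaled, over widths of 1816 and 2033 bp. The next 3, on chromosomes 3, 10 and 2, had knockout pileups of 77, 86 and 83 and wild-type pileups of 217, 206 and 198, or 82.6, 78.5 and 75.4 when scaled. The knockout pileup was thus above the scaled wild-type one for 3 of these first 4 peaks. Each of the 3 on chromosomes 3, 10 and 2 had a peak in all 4 hotspot lines and at 0 of the 6 other times. Format and time cannot be told apart for these either. The fifth (chr17:24305683-24306940) had 43 fragments in the knockout and 178 in wild type, 67.8 when scaled, and was present in all 10 other libraries. Its unscaled pileup was thus the lowest of the 5 in the knockout, and it was below the scaled wild-type value.

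Wild-type peaks were next divided by which of the time course lists also held them. Those lists came in another format than the 48 h lists. Absence from them may reflect format or time, which cannot be told apart, so the class names describe the lists only. Of the 25628 peaks also called at -24, 0, 24 and 72 h, 21.02% (20.5 to 21.5%) were missing in the knockout. Of the 1701 late peaks, called at 24 and 72 h and at neither -24 nor 0 h, 70.5% (68.3 to 72.7%) were missing. Of the 3176 early peaks, called at -24 and 0 h and at neither 24 nor 72 h, 70.7% (69.0 to 72.2%) were missing. Of the 18538 peaks called at none of the 6 other times, 89.8% were missing. In H1 these 4 classes lacked 1.92%, 6.82%, 23.02% and 37.2%. H1 had the longest list and the lowest missing share of the hotspot lines over all wild-type peaks. Its list was not held to the lowest pileup of the knockout here. The classes are not given for the other hotspot lines. The median pileup was 28 fragments in the constant class, 18 in the late, 17 in the early and 15 in the last class.

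Strength was also held in this comparison. At a scaled pileup of 12 to below 16, where all 4 classes had a median pileup of 35 or 36 fragments, 12.3% (11.4 to 13.3%) of constant peaks were missing. In that range 64 of 116 late peaks (55.2%, 46.1 to 63.9%) and 107 of 206 early peaks (51.9%, 45.1 to 58.7%) were missing, as were 70.4% of those at no other time. The late and early classes had overlapping intervals, and both stood above the constant class. Width was not held, with medians of 995 bp (constant), 1049 bp (late), 804 bp (early) and 659.5 bp (no other time). In H1, again with its whole list, 0.36% of the same constant peaks, 1 of the 116 late peaks and 12 of the 206 early peaks were missing. With strength not held, 89.8% of wild-type peaks met at 0 of the 6 times and 20.5% of those met at all 6 were missing. At a scaled pileup of at least 12 the order was broken, with 55.3% at 0 times, 64.2% at 1 time and 7.79% at all 6. At 24 or more, 2 of 66 peaks met at 0 times, 5 of 19 met at 3 times and 49 of 2144 met at all 6 were missing. Strength was not held in this last range, where the median pileups of these sets were 131.5, 73 and 77 fragments. Between different times of wild type, 50.8% of peaks at 48 h had no peak at 72 h, against 57.5% with none in the knockout. With both lists cut to 55585 peaks, the 72 h list by its deposited score since it holds no −log10 p, the share was 48.5%. The knockout value at that list length was 49.6%, and the ranking measure and the format differ between these comparisons.

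Missing and kept peaks differed in the other libraries. A peak in H1 met 73.7% of missing peaks and 97.5% of kept peaks, and one in H3 met 59.3% of missing and 93.9% of kept peaks. In the wild-type time course, 28.5 to 43.4% of missing peaks and 77.1 to 89.4% of kept peaks had a peak at a given time. Missing peaks had a median width of 327 bp and kept peaks 669 bp, with median pileups of 16 and 26 fragments.

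Peaks found in the knockout and not in wild type were small. Their median width was 164 bp, against 276 bp for shared knockout peaks, and their median pileup was 8 against 10 fragments. They made up 51.7% of the narrowest decile of knockout peaks and 2.12% of the widest. By −log10 p they made up 48.9% of the lowest decile and 3.15% of the highest. Isolated knockout peaks were without a wild-type peak in 39.7% of cases and domain peaks in 23.6%. A wild-type peak lay within 1000 bp of 50.4% of them and within 12500 bp of 81.0%. Of the 14184, 12195 (86.0%) overlapped a peak of at least 1 of the 10 other libraries, with 72.4% met in H23 and 62.0% in H1. Shared knockout peaks were met more often, 99.9% in at least 1 of the 10, 97.9% in H23 and 97.1% in H1. At single times of the wild-type course, 27.4 to 46.7% of the knockout-alone peaks and 73.7 to 87.8% of the shared ones were met.

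The strongest of these knockout peaks lay at chr4:63263065-63263492, with a pileup of 68 fragments. The next 3, at chrX:34670477-34670675, chr17:25588692-25588938 and chr4:60094591-60094784, had 59, 55 and 48 fragments. The fifth, at chr9:3027068-3027330, had 222 fragments but a fold of only 3.97. All 5 had a peak in the 4 hotspot lines, and 1 of the 5 had a peak at 1 of the 6 other times. None of the 5 was thus seen in the knockout alone.

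The missing share varied between chromosomes. It was highest on chromosome 10, with 68.4% (66.9 to 69.8%) of 4103 wild-type peaks, and lowest on chromosomes 4 and 11, with 48.9% on both. On 9 of 20 chromosomes it was at least 60%. For peaks with a scaled pileup of at least 12 it was 28.3% on the X chromosome (22.3 to 35.3%), 28.0% on chromosome 10 (25.1 to 31.1%), 25.3% on chromosome 6 and 24.6% on chromosome 3. It was 9.70% on chromosome 12 (7.45 to 12.52%) and 10.7% on chromosome 4 (8.69 to 13.0%). The intervals of the highest and lowest chromosomes did not overlap. They treat neighbouring peaks as independent, however, and whether chromosomes differ was not tested. In the same peaks the hotspot lines lacked 2.22 to 6.67% on the X chromosome, which was among their highest, 1.26 to 3.67% on chromosome 10 and 0.635 to 3.43% on chromosome 4. The ratio of knockout to wild-type peak numbers was 0.508 on chromosome 10 and 0.973 on chromosome 4.

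**Figure D5:**
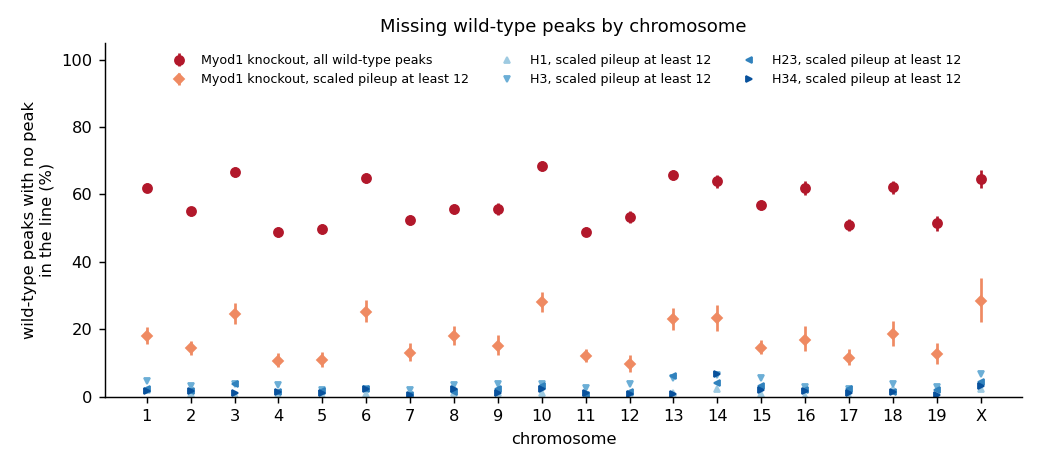
Percentage of wild-type peaks with no peak in an edited line on each chromosome, for the Myod1 knockout over all wild-type peaks and over those of a scaled pileup of at least 12 fragments, with 95% Wilson intervals, and for the 4 hotspot lines over the stronger set without intervals. Knockout values run from 48.9% to 68.4% over all peaks and from 9.70% to 28.3% over the stronger peaks, above the hotspot lines on every chromosome.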

How the data were processed

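H3K27ac peak lists of 12 C2C12 libraries were used, 1 library per condition, of 13 labelled samples. The submitters' processing notes name MACS2 2.1.0 and the build mm9. Which aligner, filters, input library or cutoffs were used is not given in the sources used here. The 48 h lists, as the authors deposited them, held 10 columns: position, a score, the fold enrichment (a ratio), −log10 of the p-value and of the q-value, and the summit. The time course lists had 5 columns, with a deposited score of no stated unit that served only to rank the 72 h peaks for 1 cut to equal numbers. Coordinates are mm9, counted from 1.

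Overlaps of at least 1 base defined shared peaks. Equal numbers were the peaks of highest −log10 p, or of highest score in the 72 h list. Stitching joined peaks across gaps of up to 12500 bp. Deciles were cut with ties by position. Summit pileup k and background b were solved from fold = (k + 1)/(b + 1) and the Poisson p-value. Whole pileups were found, with a misfit in −log10 p under 0.001, for all peaks of the 6 lists at 48 h. Folds and −log10 values were used as sizes only within a list. Between lists, the ranks of −log10 p over kept peaks and the pileups and backgrounds solved from these values were compared. Depth in reads is unknown. No test was run, since each group had 1 library. Alternatives covered the overlap rule, list length, a −log10 q of at least 3, merging within 1 kb, chromosomes 1 to 19, the stitching gap and the strata. Named regions were the 5 missing peaks of highest −log10 p and of highest fold, the 5 kept and the 5 knockout-alone peaks of highest −log10 p, and the 5 domains with the most peaks of which none or all were kept. No mm9 genome or annotation was used, so gene lists and cell markers were not run and no sequence is shown. The comparison, its bins and its rules were chosen with earlier results of these data known. The scripts were tested on simulated data. Python 3.11.15, numpy 2.4.6, pandas 2.3.3, scipy 1.17.1 and matplotlib 3.10.9 were used.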

Additional observations from a re-analysis of the deposited data

How the results depend on the processing

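Each of 7 results was recomputed under its alternatives, 66 values in all, of which 21 stayed within counting error of the reported value, 41 moved beyond it and 4 changed sign. The missing share of wild-type peaks (57.5%) was 59.6% with an overlap of 50% of the shorter peak, 55.0% with summits within 500 bases, 49.6% with equal numbers, 59.4% with a −log10 q of at least 3 and 49.7% with peaks within 1 kb merged. The share of knockout peaks without a wild-type peak (25.5%) was 29.1%, 36.7%, 29.3% and 22.97% under the first 4 of these settings. The gap between the lowest and highest deciles by width (70.7 points) was 73.2 with the 50% overlap, 53.4 with summits, 64.8 with equal numbers and 79.9 with merging. By fold (80.9 points) it was 83.4, 71.7, 76.0 and 88.2 under these settings, and by −log10 p (81.0 points) it was 83.6, 70.8, 71.3 and 86.7.

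The difference of isolated minus domain peaks (7.50 points) was 9.99 with summits, 0.848 with merging, 8.83 with stitching within 5 kb and 12.1 within 1 kb. Within strata of equal width and −log10 p (4.31 points) it was 3.29 with the 50% overlap, 7.39 with summits, 6.72 with stitching within 1 kb and -1.06 with merging.

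Limits on scaled pileup were chosen after seeing the data, as was the common floor for the hotspot lists. At 5, 8 and 12 or more fragments the missing share was 51.6%, 30.7% and 16.9%, the gap by width 67.6, 45.4 and 30.1 points, and the gap by fold 84.0, 71.5 and 46.9 points. The gap by −log10 p was 64.2 and 40.7 points at 8 and 12. Isolated minus domain peaks gave 6.27, -0.807 and -2.20 points, and within strata 0.892 and -1.33 points at 8 and 12. These settings use fewer and stronger peaks, and other causes of the shifts were not tested.

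No paired analysis was possible because each group had 1 library. There was likewise no replicate to leave out, and differences between cultures cannot be told apart from those between genotypes. Weak wild-type peaks, when scaled by background, lie near the lowest pileup called in the knockout. Their absence is thus not detectable as a difference at this depth. How many peaks this covers depends on the background ratio used. The edited lines had narrower minimum widths than the wild-type library.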
